A study of Drosophila melanogaster with 7 samples.

Results

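Transcripts of 10 Polycomb group genes were followed in *Drosophila* embryos at stage 5, around zygotic genome activation (ZGA). The genes were *Pc*, *ph-p*, *ph-d*, *Psc*, *Su(z)2*, *Sce*, *E(z)*, *esc*, *Su(z)12* and *pho*, and each was found by its FlyBase symbol as 1 row of a table of 17699 genes. The study asked whether the heterochromatin protein HP1 is needed for the 3D genome to reorganize in early embryos. Its RNA-seq compared HP1-KD (HP1 knockdown) with control embryos at this stage. The 3 HP1-KD libraries came from embryos of Bloomington stock 33400, in which a Gal4 driver line (Bloomington stock 7063) switched on a hairpin that targets HP1 in the mother's germ line. The 4 control libraries came from embryos of Bloomington stock 36303, and whether their mothers carried the driver is not given in the sources used here. The HP1-KD samples also carry a tissue label that names wild-type embryos, and their title and genotype were followed. The study describes the knockdown as partial, with a minority of embryos reaching ZGA, and notes an inversion on chromosome 2L in HP1-KD embryos, which the control embryos are not described as carrying. Embryos were staged by hand. Nothing states whether a library holds 1 embryo or how many crosses were sampled, so p-values measure the spread between these libraries only.

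Polycomb group proteins keep developmental genes such as the Hox genes silent, and they work in complexes. Polycomb repressive complex 1 (PRC1) holds the chromodomain protein Pc, which binds methylated histone H3, a Polyhomeotic protein, a Psc-type protein and the ubiquitin ligase Sce. Polycomb repressive complex 2 (PRC2) methylates histone H3 through E(z), with esc and Su(z)12 as partners. Pho binds DNA and helps to recruit the complexes. In the early fly embryo, Polycomb transcripts and proteins are supplied by the mother, and zygotic copies are added later.

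Library totals ranged from 8678092 to 16983585.5 estimated counts in HP1-KD and from 10927292.5 to 14374654.5 in control embryos. Ribosomal RNA genes took 37.3% to 80.7% of the counts of an HP1-KD library and 15.3% to 47.2% of those of a control library. The 47.2% was in control replicate 1, and the other control libraries had 15.3% to 18.1%. The counts left outside them were 3272009.5 to 5443432 in HP1-KD and 7324415.5 to 11775952 in control libraries, so low genes were measured less precisely in HP1-KD embryos. The gene of HP1, *Su(var)2-5*, was at 81.5, 99.0 and 82.4 normalized CPM (counts per 1e6, scaled with edgeR's TMM factors here and below) in HP1-KD libraries and at 189, 217, 275 and 230 in control libraries. It fell, with a log2 fold change of −1.38 (SE 0.15, adjusted p = 0.00231 from edgeR).

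A pair of libraries stood apart in marker transcripts. Control replicate 3 had 599.7 CPM summed over 7 maternal marker genes, against 1606 to 2172 in the other control libraries and 1855 to 2123 in HP1-KD libraries. It also had 73.7 CPM of *elav*, a marker of later neurons, against 7.82 to 20.0 in the other control libraries. The other 5 markers of older embryos did not pass the filter on low counts. HP1-KD replicate 1 had 114 CPM of the yolk protein gene *Yp1*, against 2.11 and 0.143 in HP1-KD replicates 2 and 3 and 0 or close to 0 in control libraries. The 6 markers of follicle cells and yolk proteins summed to 319 CPM in that library and to at most 0.386 CPM in a control library. The chorion genes *Cp36* and *Cp38*, markers of follicle cells, were at 1.31 and 1.77 CPM in HP1-KD replicate 1 and at 0 in the 6 other libraries. The 8 stage 5 zygotic markers summed to between 1474 and 2297 CPM in HP1-KD and between 2661 and 2841 CPM in control libraries. Most of these sums was *slam*, with a mean of 1100 CPM in HP1-KD and 1674 in control libraries. None of the 8 passed the test alone, beside 8.59% of all genes tested, and *Kr* came closest (adjusted p = 0.0515 from edgeR). For *slam*, *Kr* and *ftz*, every HP1-KD library was below every control library, beside 15.1% of all genes. Among the 8 markers, the log2 fold change was 0.32 for *nullo* and negative for the others, from −0.79 for *Kr* to −0.10 for *sna*. The part of these differences in the results below was not tested, and the log2 fold changes of the 10 genes without each of these libraries are given beside them. In whole embryos, fewer cells that make a transcript and less of it per cell cannot be told apart.

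No Polycomb group gene passed the threshold of 0.05 on the adjusted p of edgeR's quasi-likelihood test, while 8.59% of the 8008 genes tested did. All 10 genes passed the filter on low counts. Their log2 fold changes (HP1-KD over control) ranged from −1.23 for *ph-p* to 0.51 for *Sce*, with 6 negative, 4 positive and a median of −0.38, against a median of −0.03 over all genes tested. *pho* lay closest to the threshold, with an adjusted p of 0.0537 from edgeR, and *Sce* came next with 0.0853 from edgeR. At an unadjusted p under 0.05 there were 3 genes, *pho*, *Sce* and *ph-p*, beside 28.8% of all genes tested. DESeq2 called 3 of the 10, with *pho* and *ph-p* lower and *Sce* higher, and 18.6% of all genes (9.8% lower and 8.78% higher). limma-voom called none of the 10 and 6.99% of all genes, and 2 of the 10 had an unadjusted p under 0.05 with it, beside 26.7% of all genes. The groups did not overlap for 2 genes, *pho* (lower in HP1-KD) and *Sce* (higher in HP1-KD), whereas 30.3% of all genes did not overlap, 15.1% lower and 15.2% higher. At a threshold of 0.1 these 2 genes passed, with 17.9% of all genes.

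**Figure D1:**
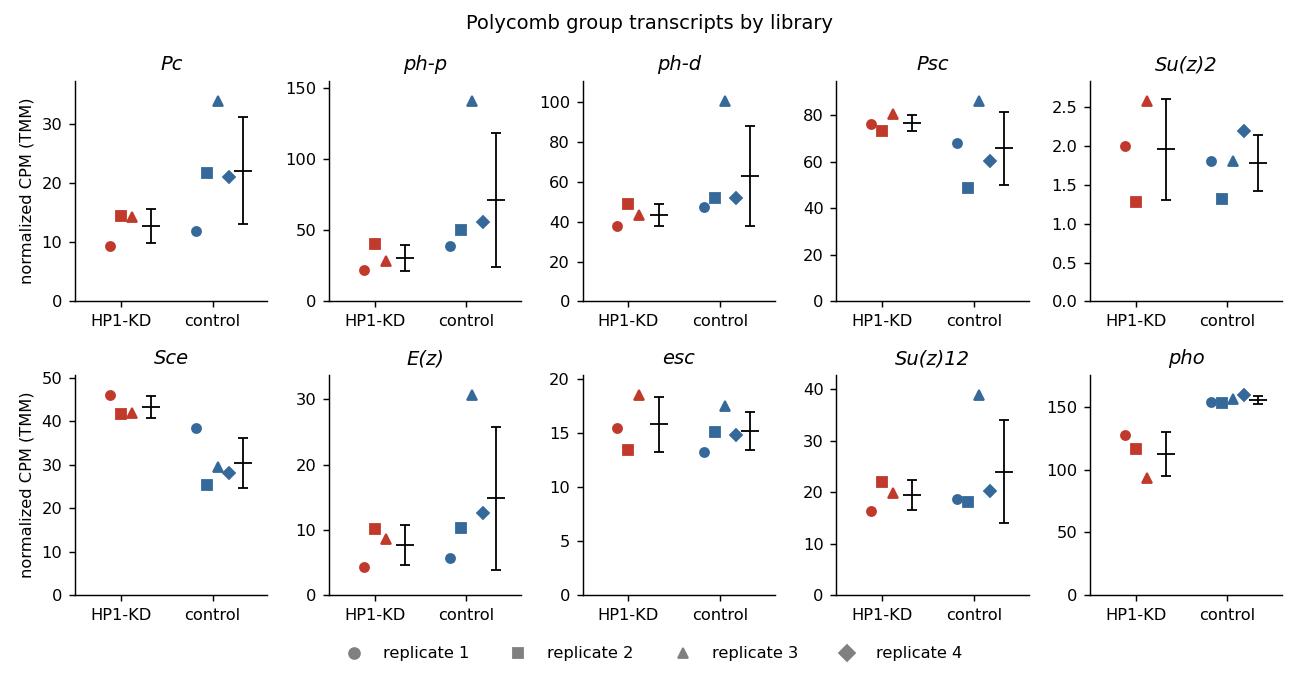
Normalized CPM (TMM scale, axes from 0) of the 10 Polycomb group genes in each library, HP1-KD in red and control in blue, with symbols for the replicate number and black bars for the mean ± SD (n = 3 HP1-KD, n = 4 control). *pho* and *Sce* are the only 2 of the 10 whose groups do not overlap, and control replicate 3 is the highest library for *Pc*, *ph-p*, *ph-d*, *Psc*, *E(z)* and *Su(z)12*.

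Levels of different genes were compared as CPM per kb of merged exons. In HP1-KD embryos *pho* was highest with 47.3 ± 7.32 CPM per kb (SD, n = 3), followed by *Sce* with 28.1 ± 1.62, *Psc* with 12.1 ± 0.572 and *esc* with 9.26 ± 1.51. *ph-d* had 7.08 ± 0.920 CPM per kb, *Pc* 5.18 ± 1.18, *Su(z)12* 4.73 ± 0.700, *ph-p* 4.4 ± 1.35 and *E(z)* 2.88 ± 1.13 (SD, n = 3 HP1-KD libraries). In this order the library ranges of *esc* and *ph-d*, of *Pc* and *Su(z)12*, of *Su(z)12* and *ph-p*, and of *ph-p* and *E(z)* overlapped, and those of the other neighbours did not. In control embryos *pho* had 65.3 ± 1.26 CPM per kb (SD, n = 4), *Sce* 19.7 ± 3.71, *Psc* 10.4 ± 2.48, *ph-p* 10.4 ± 6.81 and *ph-d* 10.3 ± 4.12. *Pc* had 8.99 ± 3.68 CPM per kb, *esc* 8.90 ± 1.03, *Su(z)12* 5.84 ± 2.44 and *E(z)* 5.56 ± 4.11 (SD, n = 4 control libraries). From *Psc* down to *E(z)*, the ranges of all neighbours overlapped in control embryos. Of these neighbours, *esc* lay above *Su(z)12* in each of the 4 control libraries, and the others changed order in at least 1 library. *Su(z)2* was the lowest in both groups, with 0.291 ± 0.0966 CPM per kb in HP1-KD (SD, n = 3) and 0.266 ± 0.0535 in control embryos (SD, n = 4). *Su(z)2* therefore stood well below its relative *Psc*, and the DNA-binding *pho* well above the others of these 10 genes.

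Among the PRC1 genes, *Pc* (FBgn0003042) spans positions 21306138 to 21318020 of 3L (dm6, minus strand), and 60 nt of its exons overlap *CG7632* on the other strand. *Pc* was at 9.41, 14.5 and 14.3 CPM in HP1-KD libraries and at 11.9, 21.7, 33.9 and 21.0 CPM in control libraries. The groups overlapped through control replicate 1. Its log2 fold change was −0.79 (95% interval −1.59 to 0.01, adjusted p = 0.175 from edgeR), and −0.52 without control replicate 3 (adjusted p = 0.213 from edgeR).

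The Polyhomeotic genes *ph-d* (FBgn0004860, X from 2115727 to 2123286) and *ph-p* (FBgn0004861, X from 2126210 to 2138371) are tandem copies on the minus strand. They are alike in sequence, and how reads that fit both were counted is not given in the sources used here, so the split between them is uncertain. *ph-p* was at 21.9, 40.2 and 28.7 CPM in HP1-KD libraries and at 38.6, 50.1, 141 and 55.7 CPM in control libraries. Control replicate 3 was by far the highest library, and HP1-KD replicate 2 lay above control replicate 1. The log2 fold change of *ph-p* was −1.23 (95% interval −2.31 to −0.16, adjusted p = 0.131 from edgeR), and −0.66 without control replicate 3 (adjusted p = 0.0777 from edgeR). *ph-d* was at 37.8, 49.1 and 43.3 CPM in HP1-KD libraries and at 47.5, 51.7, 101 and 51.8 CPM in control libraries. Apart from control replicate 3, the control libraries of *ph-d* lay close to the highest HP1-KD library. Its log2 fold change was −0.53 (95% interval −1.18 to 0.11, adjusted p = 0.239 from edgeR), and −0.22 without control replicate 3 (adjusted p = 0.235 from edgeR).

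*Psc* (FBgn0005624, 2R from 12965997 to 12980994) and *Su(z)2* (FBgn0265623, 2R from 12996501 to 13007911) are neighbouring relatives that point away from each other. *Psc* was at 76.1, 73.1 and 80.3 CPM in HP1-KD libraries and at 68.0, 48.5, 86.0 and 60.2 CPM in control libraries. The HP1-KD libraries were close together, below control replicate 3 and above the other 3 control libraries. The log2 fold change of *Psc* was 0.22 (95% interval −0.21 to 0.65, adjusted p = 0.446 from edgeR), 0.37 without control replicate 3 (adjusted p = 0.0881 from edgeR) and 0.09 without control replicate 2 (adjusted p = 0.719 from edgeR). *Su(z)2* had 13, 14 and 18 estimated counts in HP1-KD libraries and 26, 25, 42.5 and 43.5 in control libraries, or 1.29 to 2.58 CPM and 1.32 to 2.20 CPM after scaling. Its log2 fold change of 0.11 had a 95% interval from −0.68 to 0.90 (adjusted p = 0.839 from edgeR).

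*Sce* (FBgn0003330, 3R from 27680431 to 27682029), which encodes the ligase that ubiquitylates histone H2A, was at 46.1, 41.6 and 42.0 CPM in HP1-KD libraries and at 38.5, 25.3, 29.5 and 28.2 CPM in control libraries. Each HP1-KD library was above each control library, though control replicate 1 came close. For *Sce* the log2 fold change was 0.51 (95% interval 0.14 to 0.88, adjusted p = 0.0853 from edgeR). Omitting any 1 library kept it between 0.43 and 0.65. Of these 7 omissions, only that of control replicate 1 took it past the threshold (adjusted p = 0.0224 from edgeR), where 12.5% of all genes were called and 6% were higher. *Sce* was the one PRC1 gene whose 95% interval lay above 0.

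Among the PRC2 genes, *E(z)* (FBgn0000629, 3L from 10634575 to 10638130, minus strand), which encodes the histone methyltransferase, shares 38 nt of exon with *CG34001* on the other strand. *E(z)* was at 4.32, 10.1 and 8.61 CPM in HP1-KD libraries and at 5.73, 10.3, 30.7 and 12.5 CPM in control libraries. The difference rested on control replicate 3. Its log2 fold change of −0.94 (95% interval −2.26 to 0.38, adjusted p = 0.30 from edgeR) was −0.30 without that library (adjusted p = 0.590 from edgeR), and −0.02 when HP1-KD replicate 1 was also left out (adjusted p = 0.977 from edgeR).

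*Su(z)12* (FBgn0020887, 3L from 19918242 to 19923462), a zinc finger subunit of PRC2, was at 16.4, 22.1 and 19.8 CPM in HP1-KD libraries and at 18.6, 18.0, 38.9 and 20.2 CPM in control libraries. Apart from control replicate 3, the groups lay within the same range. Its log2 fold change was −0.30 (95% interval −0.99 to 0.39, adjusted p = 0.512 from edgeR), and its sign turned without control replicate 3 (0.03, adjusted p = 0.901 from edgeR). *esc* (FBgn0000588, 2L from 11827204 to 11829405), the WD repeat subunit, was at 15.4, 13.4 and 18.5 CPM in HP1-KD libraries and at 13.3, 15.1, 17.5 and 14.8 CPM in control libraries. The groups of *esc* overlapped over nearly their whole range, and the log2 fold change was 0.05 (95% interval −0.34 to 0.45, adjusted p = 0.849 from edgeR).

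*pho* (FBgn0002521), which encodes a zinc finger protein that binds DNA at Polycomb response elements, is the only 1 of the 10 on the small chromosome 4, from 1172469 to 1181628 on the minus strand. *pho* was at 128, 116 and 93.5 CPM in HP1-KD libraries and at 154, 153, 156 and 160 CPM in control libraries. The control libraries were nearly equal and all lay above the HP1-KD libraries. The HP1-KD mean of 113 ± 17.4 CPM (SD, n = 3) was 72.4% of the control mean of 156 ± 3.01 CPM (SD, n = 4). On the log2 scale the fold change was −0.47 (SE 0.12, 95% interval −0.75 to −0.19, adjusted p = 0.0537 from edgeR). *pho* did not pass the threshold here, and the adjusted p ranged from 0.00397 with DESeq2 to 0.220 with the replicate number as a block. Without control replicate 3 it passed (−0.47, adjusted p = 0.0367 from edgeR), when 15.8% of all genes did (8.29% with a lower level). Over the 7 omissions of 1 library its log2 fold change lay between −0.55 and −0.35. In all, *pho* passed in 7 of 21 alternatives, among them RLE scaling (8.9% of all genes called), upper-quartile scaling (8.35%), at least 10 counts in every library (6.51%) and removal of the rRNA genes (9.1%). In these named alternatives its adjusted p was only just under 0.05 (0.0495 to 0.04998 from edgeR). Of the 7, 1 left out HP1-KD replicate 1 and control replicate 3 and was chosen after the data were seen. With library totals as the only scaling *pho* did not pass (adjusted p = 0.0685 from edgeR), while *Pc*, *ph-p* and *E(z)* did with a lower level, with 13.7% of all genes. That scaling moved the median gene by −1.15, and 1064 of its 1095 calls were lower.

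**Figure D2:**
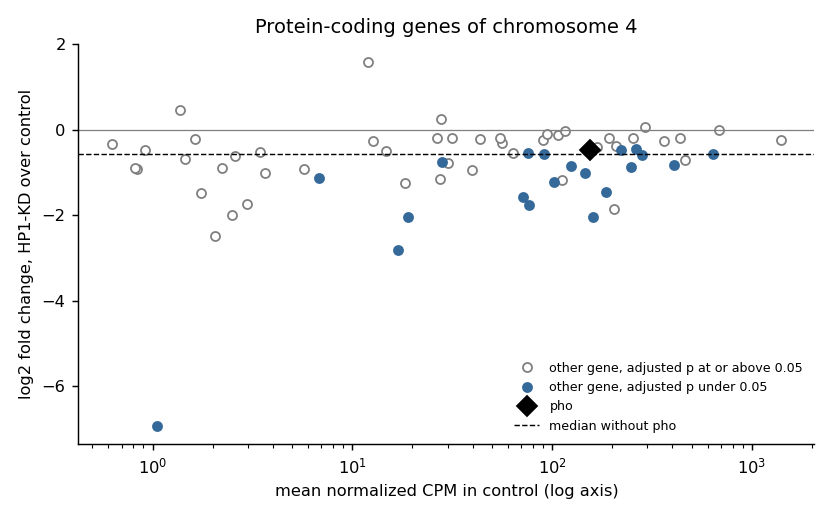
Log2 fold change (HP1-KD over control) against the mean CPM in control libraries (log axis) for the tested protein-coding genes of chromosome 4, with filled points for an adjusted p under 0.05 from edgeR, a diamond for *pho* and a dashed line at the median of the other genes. *pho* sits at −0.47, slightly above that median of −0.58.

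Chromosome 4 is rich in HP1-bound chromatin, and its genes were set beside *pho* for this reason. HP1 binding to these genes was not examined here, and its part in their levels was not tested. Of the 67 other protein-coding genes of chromosome 4 that were tested, 63 had a negative log2 fold change, 20 passed the threshold with a lower level and none with a higher one (4.9% and 3.7% of all genes). Their median log2 fold change was −0.58, against 0.00 for the protein-coding genes of the other chromosomes, and 41 of the 67 had a lower log2 fold change than *pho*. Some of the 67 were near the floor, such as *CG31997* with a mean of 0 CPM in HP1-KD and 1.05 CPM in control libraries. Among the genes tested, the log2 fold change of *pho* was near the middle of its chromosome. By level it stood in the upper part, since 20 of the 67 had a higher mean CPM than *pho* in control embryos.

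The gene with the most similar profile to *pho* over the 7 libraries was *Cyt-c-p* (cytochrome c), followed by *CG12343*, *su(Hw)*, *Sam-S* and *Hcf*. The root mean square difference from *pho* in centred log2 CPM was between 0.03 and 0.06 for these 5 genes. Their log2 fold changes lay between −0.52 and −0.43, which follows from choosing them by that difference over the same libraries. *Hcf* is also on chromosome 4. Among the 45 pairs of Polycomb genes, *ph-d* and *Su(z)12* had the most similar profiles (0.13), followed by *Psc* and *esc* (0.24) and by *Psc* and *Sce* (0.25). The first pair shared the high value of control replicate 3.

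**Figure D3:**
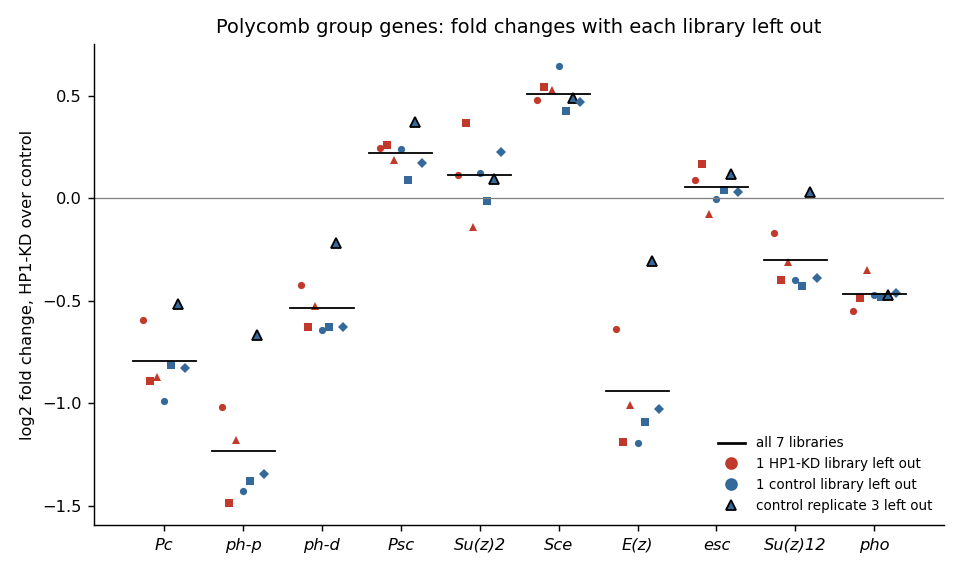
Log2 fold change (HP1-KD over control) of each Polycomb group gene with all 7 libraries (black line) and with 1 library left out (points, red for an HP1-KD and blue for a control library, symbols as the replicate number). Leaving out control replicate 3, outlined in black, moved *E(z)*, *ph-p*, *Pc*, *ph-d* and *Su(z)12* towards 0 and left *pho* at −0.47. *E(z)* moved from −0.94 to −0.30 and *Pc* from −0.79 to −0.52.

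The control libraries were not alike for these genes. In control replicate 3, *ph-p*, *ph-d* and *Su(z)12* each stood apart from the other control libraries, and *Pc*, *Psc*, *E(z)* and *esc* were also highest there among the control libraries, whereas *pho*, *Sce* and *Su(z)2* were within the range of the other 3. The same library had the low maternal and high *elav* values given above, whose part in this was not tested. Without control replicate 3, 4 of the 10 had an unadjusted p under 0.05 (*ph-p* and *pho* with a negative and *Psc* and *Sce* with a positive log2 fold change), beside 33.1% of all genes. Of these, *pho* passed the threshold, as did 15.8% of all genes. The log2 fold changes not yet given for this omission were 0.49 for *Sce*, 0.10 for *Su(z)2* and 0.12 for *esc*. Without HP1-KD replicate 1, *Pc* was at −0.59, *ph-p* at −1.02, *ph-d* at −0.42, *E(z)* at −0.64, *Su(z)12* at −0.17 and *pho* at −0.55. In that omission *Psc* was at 0.25, *Su(z)2* at 0.11, *Sce* at 0.48 and *esc* at 0.09. Without control replicate 1, the control library richest in rRNA, *Pc* was at −0.99 (adjusted p = 0.0542 from edgeR). *ph-p* was then at −1.43, *ph-d* at −0.64, *E(z)* at −1.19, *Su(z)12* at −0.40 and *pho* at −0.47. *Psc* was at 0.24, *Su(z)2* at 0.12, *Sce* at 0.65 and *esc* at −0.003 without that library. Without HP1-KD replicate 1 and control replicate 3 together, an alternative chosen after the data were seen, *pho* was again the only 1 of the 10 to pass (−0.56, adjusted p = 0.0451 from edgeR), when 7.34% of all genes did (4.29% with a lower level).

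Some Polycomb proteins are made by pairs of related genes, and the ratio of their counts within a library does not depend on scaling. Across 4 such pairs, *esc* to *escl* was the only 1 whose groups did not overlap. Among single genes, the CPM of 30.3% of those tested did not overlap, so 1 of 4 pairs does not stand out. *escl*, a close relative of *esc*, had 15.5, 23.5 and 21 estimated counts in HP1-KD libraries and 75.5, 92, 104 and 95 in control libraries. *esc* counts were 6.25, 6.10 and 6.02 times those of *escl* in HP1-KD libraries and 2.51, 3.10, 3.90 and 3.10 times in control libraries. Log2 ratios differed by 0.98 (exact two-sided permutation test, p = 0.0571, the smallest that 3 against 4 libraries allow; adjusted over the 4 ratios 0.229). Omitting any 1 library kept this difference between 0.87 and 1.08. No pair can pass 0.05 by this test. In the fit across all genes *escl* was at 2.47, 2.21 and 3.01 CPM in HP1-KD libraries and at 5.31, 4.86, 4.47 and 4.75 CPM in control libraries. *escl* fell (log2 fold change −0.92, SE 0.23, adjusted p = 0.0478 from edgeR), while *esc* had 0.05 and did not pass. This call of *escl* was lost in 13 of 21 alternatives, with 6 of the 7 omissions of a library among them, although its fold change stayed between −1.05 and −0.81 in those 7. In the annotation, 53 nt of its exons overlap those of *dgt2* on the same strand.

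**Figure D4:**
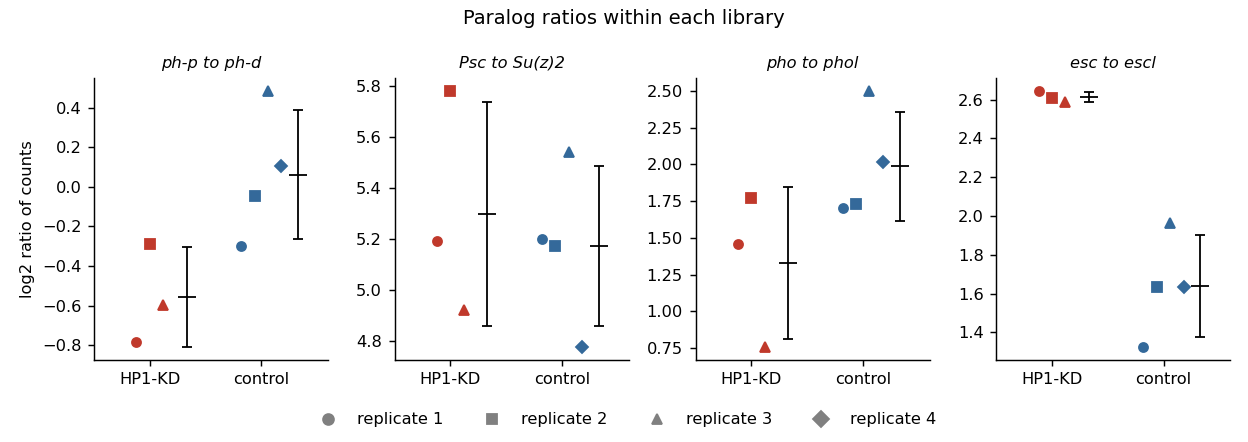
Log2 ratio of the estimated counts of 2 related genes within each library, with a pseudocount of 0.5, in HP1-KD (red) and control (blue) embryos, with black bars for the mean ± SD (n = 3 HP1-KD, n = 4 control). The *esc* to *escl* ratio is 2.61 ± 0.0270 in HP1-KD and 1.64 ± 0.261 in control libraries and does not overlap, while the other 3 ratios overlap between the groups. For the CPM of single genes, 30.3% of those tested do not overlap.

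For *ph-p* to *ph-d* the log2 ratio was −0.56 ± 0.252 in HP1-KD (SD, n = 3) and 0.06 ± 0.327 in control libraries (SD, n = 4), a difference of −0.62 (exact permutation test, p = 0.114, adjusted 0.229). HP1-KD replicate 2 and control replicate 1 had almost the same ratio. *pho* counts were 2.74, 3.41 and 1.69 times those of its relative *phol* in HP1-KD libraries and 3.25, 3.32, 5.65 and 4.04 times in control libraries. The difference in log2 ratio was −0.66 and the groups overlapped (exact permutation test, p = 0.171, adjusted 0.229). *phol* itself, on 3L, had a log2 value of 0.18 for HP1-KD over control (95% interval −0.36 to 0.71, adjusted p = 0.621 from edgeR). *Psc* counts were between 30.3 and 54.97 times those of *Su(z)2* in HP1-KD and between 27.4 and 46.6 times in control libraries (exact permutation test, p = 0.743).

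The wider set of Polycomb factors was read from 3 lists with 24 genes, all of which were tested. Of these, 4 passed the threshold, all with a lower level (4.9% of all genes were lower and 3.7% higher), and their median log2 fold change was −0.03. Of 5 PRC2 partners (median log2 fold change −0.27), *Caf1-55* and *escl* fell and 3 did not pass. *Caf1-55*, a histone-binding subunit that PRC2 shares with other chromatin complexes, was at 243, 236 and 216 CPM in HP1-KD libraries and at 280, 304, 315 and 305 CPM in control libraries. Each HP1-KD library was below each control library, and the log2 fold change was −0.38 (SE 0.09, adjusted p = 0.0479 from edgeR). *Jarid2* (0.26) and *jing* (0.07), the next most abundant of the 5 by count, had adjusted p-values of 0.322 and 0.847 from edgeR.

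**Figure D5:**
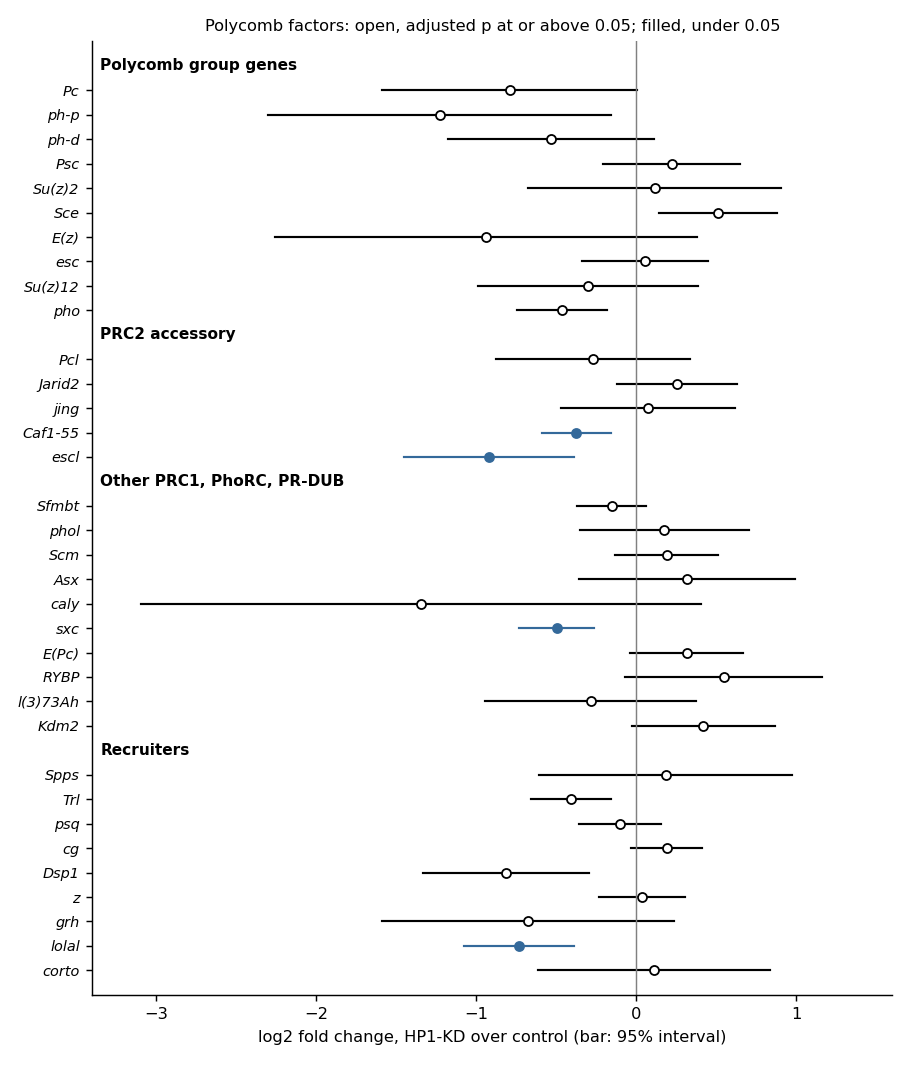
Log2 fold changes (HP1-KD over control) with 95% intervals from edgeR for the 10 Polycomb group genes and 24 further Polycomb factors in 3 lists, filled where the adjusted p was under 0.05. The 4 filled points, *Caf1-55*, *escl*, *sxc* and *lolal*, are all below 0, and none is among the 10 genes at the top.

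Of 10 further genes, for PRC1, the Pho complex, the deubiquitylase and other Polycomb factors (median 0.18), *sxc* fell and 9 did not pass. *sxc*, the gene of the enzyme that adds O-GlcNAc to Polyhomeotic among other proteins, was at 197, 188 and 166 CPM in HP1-KD libraries and at 256, 247, 258 and 277 CPM in control libraries, or −0.50 on the log2 scale (SE 0.10, adjusted p = 0.0264 from edgeR). *Sfmbt*, which encodes the partner of Pho, was at 244 ± 9.71 CPM in HP1-KD (SD, n = 3) and 272 ± 16.9 CPM in control embryos (SD, n = 4), or −0.15 on the log2 scale (adjusted p = 0.298 from edgeR). *E(Pc)* had 0.31 (adjusted p = 0.213 from edgeR). Of 9 recruiters and their cofactors (median −0.10), *lolal* fell and 8 did not pass. It had 73.9, 63.4 and 81.8 CPM in HP1-KD libraries and 120, 101, 143 and 122 CPM in control libraries. On the log2 scale *lolal* changed by −0.73 (SE 0.15, adjusted p = 0.0259 from edgeR). *lolal* encodes a BTB domain protein that partners with the GAGA factor. *psq* (−0.10) and *cg* (0.19), the most abundant of this list, and *Dsp1* (−0.82) had adjusted p-values of 0.550, 0.232 and 0.0636 from edgeR. Of 21 alternatives, 11 lost the call of *Caf1-55*, 7 that of *sxc* and 7 that of *lolal*, and omission of any 1 HP1-KD library lost all 3, as did omission of control replicate 4. Over the 7 omissions the log2 fold change lay between −0.41 and −0.33 for *Caf1-55*, between −0.53 and −0.43 for *sxc* and between −0.82 and −0.64 for *lolal*.

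Transcripts of Polycomb target genes were few at this stage. Of 20 targets, 12 passed the filter on low counts, and none of the 12 passed the test, beside 8.59% of all genes. An unadjusted p under 0.05 was reached by 1 of the 12, beside 28.8% of all genes. All 12 had a negative log2 fold change, with a median of −1.20 against −0.03 over all genes tested. Counts outside rRNA were fewer in HP1-KD, so low targets could pass the filter through control libraries alone, which favours a negative sign. *inv*, for example, was at 0.154, 0.551 and 0.430 CPM in HP1-KD libraries and at 1.12, 1.06, 0.687 and 0.800 CPM in control libraries. The shared sign is therefore not read as a result about the targets. For *Antp*, *wg* and *tsh*, the 3 highest by count, control replicate 3 was the highest library. *Antp*, a Hox gene, was at 1.70, 2.94 and 4.88 CPM in HP1-KD libraries and at 1.40, 4.86, 32.0 and 12.3 CPM in control libraries. *wg*, a secreted signal, had 4.47, 7.72 and 5.45 CPM in HP1-KD libraries and 6.14, 8.03, 27.3 and 13.3 CPM in control libraries, with an adjusted p of 0.177 from edgeR. The log2 fold change of *Antp* was −2.0 with control replicate 3 and −0.99 without it, and that of *wg* was −1.21 with it and −0.63 without it. The sign of *tsh* turned (−0.75 with it, 0.26 without).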

How the data were processed

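For each FlyBase gene the authors deposited an estimated count, not normalized and in steps of 0.5, made from total RNA libraries of Illumina's TruSeq Stranded kit. The submitters' processing notes name STAR and dm6; the counting program, the strand setting and versions are not given in the sources used here. Gene models came from Ensembl's dm6 annotation (release 115), in which 17561 of 17699 identifiers matched. Estimated counts were rounded, filtered with filterByExpr (8008 genes kept), scaled with TMM factors and fitted with edgeR 4.0.16 in R 4.3.3 (estimateDisp, glmQLFit, glmQLFTest), with condition as the only term. Benjamini-Hochberg adjusted p-values under 0.05 over all genes tested were called. Standard errors are the log2 fold change over the square root of F. Ratios of related genes used a pseudocount of 0.5 and exact permutation tests over 35 splits in scipy 1.17.1. Alternatives used DESeq2 1.42.0, limma 3.58.1, other scalings and filters, a replicate block and omitted libraries. Named genes were the 10 Polycomb group genes and, of each list, those past the threshold and the 3 highest by count, with *phol* and *escl*. The members and lists were chosen with earlier results of these data known. Sequences were not analysed here.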

Additional observations from a re-analysis of the deposited data

Results flagged for a closer look

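In 4 control libraries, a value was set apart when its gap to the nearest other exceeded Dixon's 95% limit as a share of the whole range. Chance sets apart about 1 in 20 groups, and 3 of 34 were. All 3 were high values in control replicate 3: *ph-p* with 140.8 CPM against 55.7 in the next library, *ph-d* with 100.6 against 51.8, and *Su(z)12* with 38.9 against 20.2. The cause was not tested.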

How the results depend on the processing

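Labels share replicate numbers between the groups, and nothing says that equal numbers were collected together. Deviations of same-numbered libraries correlated across genes at 0.41, −0.13 and 0.06, and 2 of the 3 HP1-KD libraries correlated best with the control of their own number. With the replicate block the calls over all genes were 96 (of 688), those among the Polycomb genes 0 and those among the other lists 0 (of 5), with or without control replicate 4. With this block the log2 fold change of *tsh* was 0.066, or 0.073 with control replicate 4 kept, and the *Psc* to *Su(z)2* difference −0.0061. No Polycomb gene changed its call. Calls over all genes were 1095 with total-count scaling, 404 with protein-coding genes only, 439 with at least 10 counts in every library, 1488 with DESeq2, 1435 at a threshold of 0.1 and 154 at 0.01. They ranged from 181 to 1212 with each library left out. Calls among the 10 Polycomb genes were 1 with RLE or upper-quartile scaling, without rRNA genes or with at least 10 counts in every library (*pho* each time), 3 with total-count scaling, 3 with DESeq2, 2 at a threshold of 0.1, and 0 to 1 with each library left out. Calls in the other lists were 3 with upper-quartile scaling, 14 with total-count scaling, 3 with protein-coding genes only, 2 with no filter, 9 with DESeq2, 3 with limma-voom, 9 at a threshold of 0.1, 0 at 0.01, and 0 to 9 with each library left out. With HP1-KD replicate 1 and control replicate 3 both left out, chosen after seeing the data, 1 Polycomb gene and 3 list genes were called, and *Su(z)12* (0.15) and *tsh* (0.62) turned sign.

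Total-count scaling moved the median gene by −1.15 and left 31 calls higher and 1064 lower. It turned *Psc* (−0.91), *Su(z)2* (−1.20), *Sce* (−0.59), *esc* (−1.17), *Jarid2* (−0.90), *jing* (−1.03), *E(Pc)* (−0.79), *cg* (−0.92), *ash1* (−0.67), *kis* (−1.12) and *phol* (−1.07). Relative to that median, *Sce* (0.56) and *Psc* (0.24) stayed above 0. *kis*, at 0.01, was −0.023 with upper-quartile scaling, −0.032 with at least 10 counts and −0.0062 with no filter. With each library left out the ranges were −0.14 to 0.37 for *Su(z)2*, −0.076 to 0.17 for *esc*, −0.43 to 0.03 for *Su(z)12*, −0.058 to 0.32 for *jing*, −0.12 to 0.13 for *kis*, −1.21 to 0.26 for *tsh* and −0.12 to 0.31 for the *Psc* to *Su(z)2* ratio. With both of those libraries left out *jing* was at 0.40. The cause of these changes was not tested. *Su(z)2* had 13 to 18 counts per HP1-KD library.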

Other observations

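Of 10 genes that counteract the Polycomb group, *ash1*, a histone methyltransferase of the Trithorax group, rose and 9 did not pass, when 3.7% of all genes tested rose. *ash1* was at 127, 121 and 146 CPM in HP1-KD libraries and at 94.7, 82.4, 103 and 94.7 CPM in control libraries, or 0.49 on the log2 scale (SE 0.12, adjusted p = 0.0415 from edgeR). The call was lost in 12 of 21 alternatives, while the log2 fold change lay between 0.41 and 0.55 with any 1 library omitted. Total-count scaling, which moved the median gene by −1.15, gave −0.67. *nej*, the gene of the acetyltransferase CBP, was at 547, 528 and 623 CPM in HP1-KD libraries and at 337, 180, 362 and 109 CPM in control libraries, with a log2 fold change of 1.2 that did not pass (adjusted p = 0.0863 from edgeR). *osa*, a subunit of the Brahma remodeller, had 1.1 (adjusted p = 0.134 from edgeR), and *kis*, the most abundant of the list, 0.01. Both *nej* and *osa* were lowest in control replicate 4. Every HP1-KD library was above every control library for 5 of the 10 genes, beside 15.2% of all genes. *nej*, *osa* and *ash1* were among these 5. For 1 of the 10, every HP1-KD library was below every control library, beside 15.1% of all genes. The list had 6 positive and 4 negative log2 fold changes, with a median of 0.20 against −0.03 over all genes tested.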
